A study of Homo sapiens with 42 samples.

Results

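SQ20B is a head and neck squamous cell carcinoma line that the study lists as HPV-negative with amplification of EGFR, and the data described here are its transcriptional response to cetuximab, an antibody that binds the outer part of the EGFR protein. The 6 SQ20B arrays were taken by their titles from 42 arrays in all. Of these, 3 came from cells given 100 nM cetuximab for 24 h and 3 from control cells. The labels call the control cells untreated, and the study calls them a PBS control. The labels give SQ20B a survival of 28.65% under cetuximab, which the study's methods define as colony area after 7 days relative to control. The same 2 arms exist for 5 other carcinoma lines (SCC25, SCC61, SCC047, SCC090 and 93VU147T, 30 arrays), which serve here as the comparison. All values are levels or differences on the log2 scale, for 1 probe set per gene, and ± marks the SD over 3 arrays. SQ20B is a single line, and no source states that its replicates were separate cultures. Unless stated otherwise, the p-values measure the spread between replicate arrays pooled over all 6 lines (36 arrays), which may be technical.

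EGFR is a receptor tyrosine kinase that, once bound by ligands of the EGF family, passes its signal through RAS to the kinase ERK and through PI3K to AKT. ERK switches on a rapid set of transcription factors and, with them, phosphatases and Sprouty proteins that restrain the pathway again. In stratified epithelium the receptor drives basal cells to divide, and its activity is lower in the layers that differentiate.

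The labelled cell type was compared with its markers first. Keratinocyte and epithelial markers were present at high levels, KRT5 (a basal keratin) at 12.64, 12.62 and 12.71 with cetuximab, against 12.13, 12.22 and 12.05 in control. KRT14, the usual partner of KRT5, read only 5.26, 5.40 and 5.18 with cetuximab, against 4.67, 4.73 and 5.15 in control, while the median over each array lay between 5.09 and 5.16. Of 7 leukocyte, 9 fibroblast and 7 endothelial markers measured, 2, 3 and 0 passed the test, against 33.3% of all genes. The largest of these changes was a rise of 1.83 in COL1A1, a collagen chain, for which another of the 5 probe sets fell by 0.21. EGFR itself stood at 13.20, 13.01 and 13.23 with cetuximab, against 12.92, 12.82 and 12.99 in control, above every other line on this probe set. That difference of 0.24 (SE 0.14) did not pass the test (adjusted p = 0.235 from limma), whereas of 8 further EGFR probe sets 4 rose, by 0.38 to 0.46, and 1 fell by 0.75. With the mean of all EGFR probe sets the gene passed (adjusted p = 0.0292 from limma).

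Within the cetuximab arm the arrays correlated at 0.9975 or above over all genes, within control at 0.9945 to 0.9966 and across arms at 0.981 to 0.9863. Control replicate 3 belongs to another file batch, together with arrays of a line not compared here, and results are given without it where that matters. Control replicate 2 stood furthest from the other controls, with 33 genes more than 1 log2 unit away from replicate 3. The difference between the 3′ and 5′ control probe sets of ACTB, a sign of RNA integrity, was 0.54, 0.68 and 0.47 with cetuximab, against 0.28, 0.15 and 0.39 in control. The shift of 0.29 had p = 0.1 in an exact two-sided permutation test, the smallest that 3 against 3 arrays can give, and in the 5 other lines it was at most 0.11. The shift for GAPDH was 0.07. The part of this shift in the results below was not tested.

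Cetuximab changed 6579 of 19775 genes in SQ20B at an adjusted p under 0.05 (limma, Benjamini-Hochberg), which is 33.3% of those tested. Of these, 3631 rose (18.4%) and 2948 fell (14.9%). Counts of list members that rose or fell, given below, are to be read against these shares. Most changes were small, with a median size of 0.417 among the genes called, and the large ones lay mainly on the rising side, 364 rises against 90 falls of at least 1 log2 unit and 47 against 12 of at least 2. Without control replicate 3, 5632 of the calls remained with the same sign (85.6%). The cetuximab arrays lay all above the control arrays for 23.5% of genes and all below them for 22.8%, together 46.3%.

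**Figure D1:**
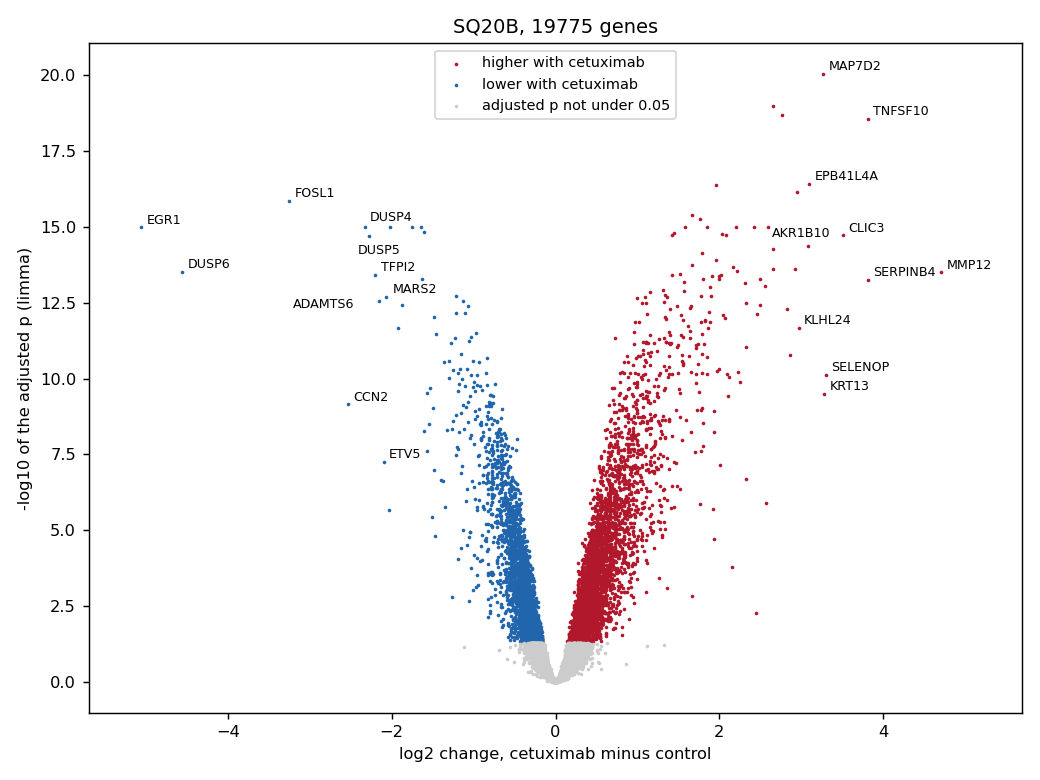
Each point is 1 of 19775 genes in SQ20B, with the log2 change (cetuximab minus control) on the x axis and −log10 of the adjusted p from limma on the y axis. Red points rose, blue points fell and grey points did not pass. EGR1 and DUSP6 lie furthest to the left at −5.06 and −4.56, and MMP12 furthest to the right at 4.71.

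The deepest falls were in genes that ERK signalling drives. EGR1, an immediate early zinc finger factor, read 4.98, 5.31 and 5.27 with cetuximab, against 10.43, 9.69 and 10.62 in control, a 33.3-fold lower level (change −5.06, SE 0.26, adjusted p = 1.06e-15). DUSP6, the phosphatase that inactivates ERK, read 4.58, 4.40 and 4.42 with cetuximab, against 9.30, 8.70 and 9.07 in control, 23.5-fold lower. FOSL1, an AP-1 subunit, read 7.47, 7.53 and 7.42 with cetuximab, against 10.86, 10.45 and 10.88 in control, 9.54-fold lower. For all of these the arms were separated by more than 2 log2 units and did not overlap. With cetuximab, EGR1 and DUSP6 lay within 1 log2 unit of the array median.

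Of the 16 ERK output genes measured, 15 fell and none rose, with a median change of −1.34 against −0.03 over all genes. They include the phosphatases DUSP4 (−2.33) and DUSP5 (−2.28), the ETS factor ETV5 (−2.10), the pleckstrin-like protein PHLDA1 (−2.03), the receptor EPHA2 (−1.60), the Sprouty-related inhibitor SPRED1 (−1.08) and cyclin D1, CCND1 (−1.01). The member that did not pass was EPHA4, at −0.14. RNA was read from whole cultures, so fewer cells that express a gene and less of its RNA per cell cannot be told apart. The wider immediate early genes did not move as 1 block. Of 11 measured, 5 fell and 2 rose (median −0.23), FOS and JUN by −1.57 and −1.17, while ATF3 rose by 0.39 and ZFP36, which destabilises cytokine mRNAs, by 0.28, a call lost without cetuximab replicates 1 or 3 or control replicate 2.

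The promoter of the gene with the deepest fall is shown because it carries the element through which serum response factor and ETS partners answer ERK. The stretch runs from 130 to 51 bases before the RefSeq start of EGR1 (GRCh38.p14, chr5:138465349-138465428, plus strand), with 2 CArG boxes in capitals.
EGR1: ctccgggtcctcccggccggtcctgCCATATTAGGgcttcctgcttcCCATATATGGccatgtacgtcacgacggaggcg
A CArG box on either strand occurred in 1.21% of the 15382 promoters of tested genes that the RefSeq table holds, each 250 bases before to 50 after the start. It occurred in 2 of 10 promoters of the immediate early genes and in 2 of 65 promoters of genes that fell by at least 1 log2 unit (3.08%). Genes that rose as much had it in 8 of 278 promoters (2.88%), a similar share. The ERK output genes had it in 0 of 9, and the ETS motif CCGGAAG also in 0 of 9. A match is a description of letters and not a measured site.

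The ligands of the receptor fell. HBEGF, heparin-binding EGF, read 5.72, 5.6 and 5.54 with cetuximab, against 7.64, 6.54 and 7.50 in control (−1.61, SE 0.17), and control replicate 2 was the low one. EREG, epiregulin, changed by −1.03 and TGFA by −0.88, so that 3 of 5 ligands measured fell and none rose. EGF and BTC stood at −0.10 and −0.05 and did not pass. The EREG call was lost when the probe set was chosen by its mean over the SQ20B arrays (adjusted p = 0.213 from limma).

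The EGFR family, the other receptor kinases listed here and the EGFR feedback regulators rose where they passed in the main fit, unlike the receptor EPHA2 (−1.60) above. ERBB3, the kinase-impaired member of the EGFR family, read 9.39, 9.32 and 9.39 with cetuximab, against 8.33, 8.22 and 8.27 in control, 2.14-fold higher, although 1 of its 5 probe sets fell by 0.24, and ERBB2 rose by 0.30. Among 12 other receptor tyrosine kinases 5 rose and none fell, led by FGFR3 (1.78), the insulin receptor INSR (0.89) and IGF1R (0.75). With the probe set of highest ratio of spread across to within groups, however, FGFR1 (−0.23, adjusted p = 0.0383 from limma) and MET (−0.34, adjusted p = 0.0244 from limma) were lower, and FGFR2 stood at −0.05. The IGF1R and ERBB2 calls were lost when a gene's probe sets were averaged. CBLB, a ubiquitin ligase that removes activated receptors, rose by 1.40, and LRIG3, a relative of the receptor antagonist LRIG1, by 0.64, while LRIG1 itself stood at 0.03. The feedback regulator SOCS3 was called lower without control replicate 3 (−0.37, adjusted p = 0.0359 from limma). ERRFI1, another, was called lower without control replicate 2 (−0.35, adjusted p = 0.00637 from limma).

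AP-2 factors bind GC-rich promoters, and the study follows AP-2alpha as a regulator in EGFR inhibition. TFAP2A, which encodes it, read 9.78, 9.75 and 9.76 with cetuximab, against 9.09, 8.88 and 9.24 in control, 1.62-fold higher (0.69, SE 0.10, adjusted p = 1.43e-06 from limma). TFAP2C rose by 0.44, a call lost when its probe sets were averaged, and TFAP2D changed by −0.40, a call lost without cetuximab replicate 1, control replicate 1 or control replicate 2. Among 5 of the AP-2alpha targets that the study follows as higher after EGFR inhibition in HaCaT keratinocytes, ERBB2 and IGF1R rose, BMP4 fell by 0.23 (not called without cetuximab replicates 1, 2 or 3 or control replicate 2), and BMP2 (0.43) and EGFR did not pass. Of 4 followed as lower there, VEGFA (−1.50) and TGFA fell, while FGFR4 (0.04) and TGFBR3 (0.27) did not pass. With the probe set of highest ratio of spread across to within groups, TGFBR3 was called higher (0.38, adjusted p = 0.0345 from limma). BMP2 was called higher with the 6 SQ20B arrays alone (adjusted p = 0.00217 from limma), all 42 arrays, a replicate block or a filter on dim genes. VEGFA averaged 8.38 ± 0.08 with cetuximab and 9.88 ± 0.16 in control (SD, n = 3 each), and the arms did not overlap.

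**Figure D2:**
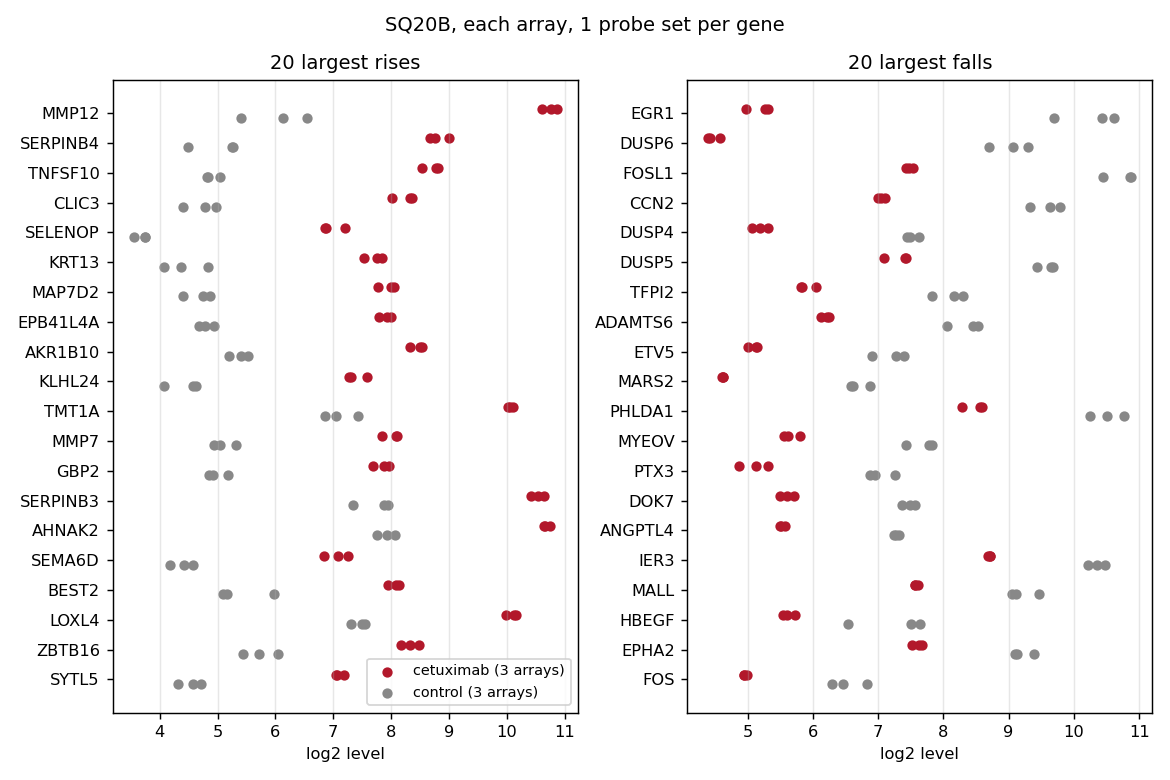
Log2 level of each array (x axis) for the 20 largest rises (left) and the 20 largest falls (right) in SQ20B, with 3 cetuximab arrays in red and 3 control arrays in grey. The arms do not overlap for any of these genes, which the choice of genes required.

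The largest rise was in MMP12, macrophage elastase. It read 10.86, 10.60 and 10.76 with cetuximab, against 6.13, 6.55 and 5.41 in control, 26.1-fold higher (4.71, SE 0.28, adjusted p = 3.19e-14 from limma). The 3 control arrays spread over more than 1 log2 unit, control replicate 3 being the lowest, and without it the change was 4.40. SERPINB4, a squamous inhibitor of cysteine and serine proteases, read 9.0, 8.68 and 8.75 with cetuximab, against 5.25, 4.48 and 5.27 in control, 14-fold higher. Its neighbour SERPINB3 was 7.07-fold higher. Both genes are near-identical in sequence, so probes may read both.

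TNFSF10, the death ligand TRAIL, read 8.78, 8.54 and 8.81 with cetuximab, against 4.83, 5.04 and 4.82 in control, 14.1-fold higher, and all 3 of its probe sets rose. KRT13, a keratin of the layers above the basal one in mucosal epithelium, read 7.75, 7.53 and 7.84 with cetuximab, against 4.08, 4.36 and 4.84 in control, 9.70-fold higher. These genes had control levels at or under the array median and were clearly above it with cetuximab. The chloride channel protein CLIC3 was 11.4-fold higher, the selenium carrier SELENOP 9.83-fold, the microtubule-associated MAP7D2 9.64-fold, EPB41L4A, of the band 4.1 family, 8.59-fold, the aldo-keto reductase AKR1B10 8.45-fold and the Kelch protein KLHL24 7.81-fold. Only 1 of 3 SELENOP probe sets was called, and the lowest stood at −0.08. On an array a level near the floor of non-specific signal understates the fold.

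The proteases and inhibitors of squamous epithelium rose in part. Among 14 matrix metalloproteinases and their inhibitors 8 rose and 3 fell, including MMP7 or matrilysin (2.92), the epidermal MMP28 (1.86) and the inhibitors TIMP3 (1.36) and TIMP2 (1.16). The falls were smaller, TIMP1 at −0.54, MMP9 at −0.27 and MMP11 at −0.22, and MMP9 (adjusted p = 0.122 from limma) and MMP11 (0.139) were not called without control replicate 3. Of 6 squamous serpins 4 rose and none fell (median 0.93), and of 8 kallikreins, secreted serine proteases, 5 rose and none fell (median 0.65), with KLK10 at 1.62 and KLK8 at 1.41. The KLK11 call (0.33) was lost on leaving out any one of the 6 SQ20B arrays, so that 4 kallikreins rose without control replicate 3. In the plasminogen system PLAUR, the urokinase receptor, fell by 1.04 and SERPINE2, a secreted protease inhibitor, by 0.82.

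Genes of terminal differentiation did not follow as a group. Of 17 cornified envelope genes 5 rose and 1 fell, with a median of 0.03 against −0.03 over all genes. TGM1, the transglutaminase that cross-links the envelope, read 8.89, 8.84 and 8.87 with cetuximab, against 6.91, 6.57 and 6.96 in control, 4.15-fold higher. IVL, FLG and SPRR1B stood at 0.13, 0.05 and −0.01 and did not pass. Among keratins KRT13 and KRT23 rose, KRT7, KRT8 and KRT18 of simple epithelium fell by 0.96, 0.46 and 0.58 (KRT8 not called without cetuximab replicates 1 or 2 or control replicate 2), and KRT15 (1.12) and KRT19 (0.86) did not pass in the fit of 36 arrays but did when the 6 SQ20B arrays were fitted alone (adjusted p = 4.75e-05 and 5.7e-05 from limma), and KRT15 also with all 42 arrays (adjusted p = 0.0475 from limma).

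Desmosome genes rose for the most part. Of 10 desmosome genes 6 rose and 1 fell (median 0.48), with JUP, plakoglobin, at 9.92, 9.87 and 9.96 with cetuximab, against 9.0, 8.87 and 9.0 in control. PERP (0.85), DSG3 (0.74) and DSP (0.58) rose as well, and PKP1 fell by 0.32. Without control replicate 3, 5 rose and none fell, since DSC3 (adjusted p = 0.0783 from limma) and PKP1 (0.0509) lost their calls. Of 8 hemidesmosome and laminin-332 genes 2 rose and 1 fell (median 0.09). ITGB4, a subunit of the hemidesmosomal integrin, rose by 0.85 while its partner ITGA6 changed by −0.32, a call lost on leaving out any one of 5 arrays.

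Genes for ribosome assembly and DNA replication fell almost without exception. All 16 ribosome biogenesis genes measured fell, with a median of −0.68, and none rose. MYC, the transcription factor counted among them, read 9.79, 9.64 and 9.77 with cetuximab, against 10.95, 10.73 and 10.95 in control, 2.21-fold lower (adjusted p = 1.04e-10 from limma). NOP16, a nucleolar protein, changed by −1.21, RRS1 and PNO1, which assemble the large and small subunit, by −1.07 and −1.06, and NPM1 least, by −0.17, a call lost on leaving out any one of 5 arrays. For NOP16 the cetuximab arrays read 9.10, 9.11 and 9.18, against 10.20, 10.42 and 10.40 in control.

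Of 28 DNA replication and E2F genes 25 fell and none rose (median −0.56). MCM10, which recruits polymerase to origins, read 6.72, 6.96 and 6.61 with cetuximab, against 8.04, 8.39 and 7.95 in control, 2.57-fold lower. CCNE2, cyclin E2, read 7.00, 7.06 and 6.47 with cetuximab, against 8.10, 8.79 and 7.70 in control, 2.55-fold lower. GINS2, part of the replicative helicase, and FEN1, the flap nuclease, changed by −1.08 and −0.93, and all 6 subunits of the MCM2 to MCM7 helicase by −0.48 to −0.67. CDT1 (−0.30), RRM1 (−0.06) and E2F8 (0.32) did not pass. CDT1 was called lower without control replicate 3 (−0.36, adjusted p = 0.0371 from limma), with its probe sets averaged (adjusted p = 0.0081 from limma) and under several other alternatives. E2F8 was called higher with the 6 SQ20B arrays alone (adjusted p = 0.0323 from limma).

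Promoter stretches of 2 of these genes are shown for motifs that were more frequent in their lists than in all promoters. In GINS2 (GRCh38.p14, chr16:85688955-85689034, minus strand, the last 80 bases before the start) the capitals mark the E2F motif TTTCCCGC, read here on the opposite strand. In NOP16 (chr5:176388599-176388658, minus strand, the last 60 bases before the start) they mark overlapping copies of the ETS motif CCGGAAG on both strands.
GINS2: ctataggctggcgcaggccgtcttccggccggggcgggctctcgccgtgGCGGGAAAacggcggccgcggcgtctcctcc
NOP16: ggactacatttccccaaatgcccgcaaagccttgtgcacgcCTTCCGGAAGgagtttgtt
TTTCCCGC or TTTGGCGC on either strand occurred in 14 of 24 promoters of the DNA replication and E2F list (58.3%), against 2.99% of all promoters. That list was drawn up with E2F genes in it, so its high share is no result of these data. Genes that fell by at least 1 log2 unit had either motif in 2 of 65 promoters (3.08%). CCGGAAG occurred in 5 of 11 promoters of the ribosome list (45.5%), against 14.4% of all, and the E-box CACGTG in 6 of 11 (54.5%), against 8.9%. Among genes that rose by at least 1 log2 unit CCGGAAG was in 5.76% of promoters.

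Mitotic genes did not share the fall. Of 26 measured, 6 rose and 3 fell, with a median of 0.09, and MKI67 read 9.56 on all 3 cetuximab arrays, against 9.39, 9.44 and 9.54 in control. CDC20, the activator of the anaphase-promoting complex, and BIRC5, survivin, changed by −0.33 and −0.28, whereas TOP2A and CDC25C rose by 0.39 and 0.44. Of 3 CDC25C probe sets 1 fell by 0.31. The BIRC5 call was lost on leaving out any one of 5 arrays (adjusted p = 0.114 from limma without control replicate 3). The TOP2A call was lost without cetuximab replicate 1 or control replicate 3 and the CDC20 call without cetuximab replicate 1 or control replicate 2.

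Inhibitors of cyclin-dependent kinases rose. CDKN2B, p15, read 8.31, 8.10 and 8.10 with cetuximab, against 6.17, 6.10 and 5.90 in control, 4.33-fold higher. CDKN1C, p57, read 6.81, 6.82 and 6.83 with cetuximab, against 5.14, 5.44 and 5.30 in control, 2.88-fold higher. CDKN1B, p27, read 10.59, 10.57 and 10.48 with cetuximab, against 9.54, 9.44 and 9.45 in control, 2.10-fold higher. The 3 inhibitors had arms far apart and tight replicates. D cyclins and their kinases fell, CCND3 by −0.69, CCND2 by −0.56, CDK4 by −0.54 and CDK6 by −0.47, and CDKN1A, p21, rose by 0.85. The CDK6 call was lost on leaving out any one of the 6 arrays (adjusted p = 0.0816 from limma without control replicate 3).

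**Figure D3:**
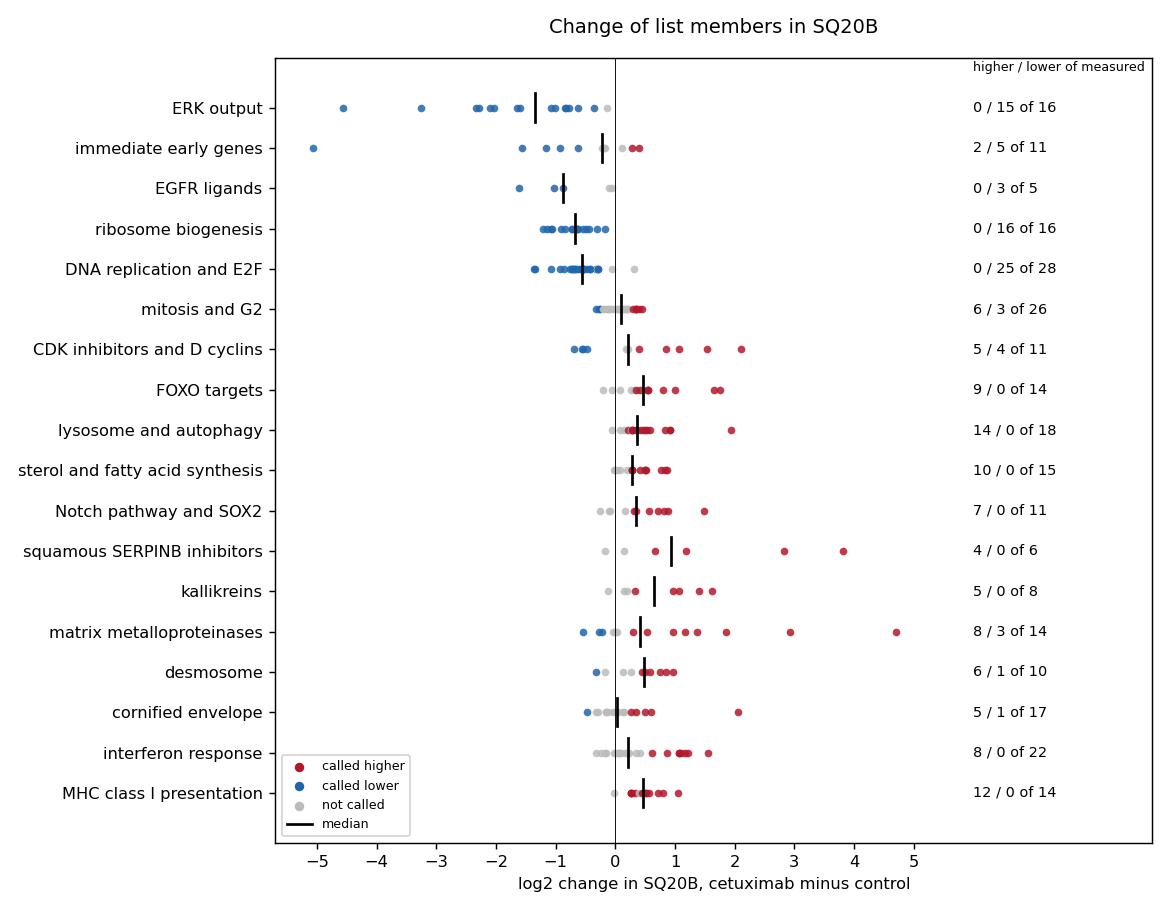
Each point is 1 measured member of a gene list and its log2 change in SQ20B (x axis, cetuximab minus control), red where it rose, blue where it fell and grey where it did not pass. Black bars are medians, and the numbers at the right give higher and lower calls of members measured, such as 0 and 16 of 16 for ribosome biogenesis. These lists were picked from 49 after their values were known.

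Genes that FOXO factors drive when AKT is inactive rose in 9 of 14 cases and fell in none (median 0.47). TXNIP, which binds thioredoxin and limits glucose uptake, read 11.04, 10.74 and 10.93 with cetuximab, against 9.17, 9.0 and 9.28 in control, 3.38-fold higher. CCNG2, an unconventional cyclin, was 3.13-fold higher, and FOXO1 and FOXO3 themselves rose by 0.54 and 0.53. IRS2 and PIK3IP1 stood at −0.06 and −0.20 and did not pass.

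Lysosome and autophagy genes rose in 14 of 18 cases and fell in none (median 0.37). WIPI1, a lipid-binding protein of the early autophagosome, read 7.68, 7.59 and 7.46 with cetuximab, against 6.08, 4.79 and 6.08 in control, where replicate 2 was more than 1 log2 unit below the others. ULK1, the kinase that starts autophagy, and GABARAPL1 each rose by 0.91, and the cathepsin CTSS by 0.84. Of 15 sterol and fatty acid synthesis genes 10 rose and none fell, SCD, the stearoyl desaturase, by 0.86 and its regulator SREBF1 by 0.83, while SQLE and HMGCS1 stood at −0.03 and 0.20. The SCD call was lost when its probe sets were averaged. In lipid transport the scavenger receptor CD36 was 5.50-fold and the sterol exporters ABCG1 and ABCA1 3.78-fold and 2.48-fold higher, whereas ANGPTL4, a lipase inhibitor, was 3.37-fold lower. The ABCG1 call was lost with the probe set chosen on SQ20B arrays (adjusted p = 0.455 from limma).

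Interferon genes rose in 8 of 22 cases and fell in none, with a median of 0.21. IFIT2, an RNA-binding effector, read 8.29, 8.09 and 8.13 with cetuximab, against 6.6, 6.71 and 6.54 in control, 2.94-fold higher, and IFIT3 and IFIT1 rose by 1.22 and 1.16. ISG15, IFI27 and OAS2 stood at 0.10, 0.19 and −0.24 and did not pass. The MHC class I machinery was more uniform, with 12 of 14 genes higher and none lower (median 0.46). PSMB9, an immunoproteasome subunit, read 9.13, 9.18 and 9.25 with cetuximab, against 8.14, 7.97 and 8.28 in control, and B2M, the invariant light chain, read 12.88, 12.91 and 12.75, against 12.63, 12.53 and 12.57 in control. NLRC5, the transactivator of these genes, rose by 0.71. The HLA genes resemble each other in sequence, so their probe sets may share signal.

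Upstream stretches of TNFSF10 and B2M are shown for the interferon-type element, GAAA and a further GAAA with any 2 bases between them, in capitals, which reads on the opposite strand in TNFSF10 (GRCh38.p14, chr3:172523581-172523640, minus strand, 210 to 151 bases before the start). In B2M (chr15:44711357-44711416, plus strand, 160 to 101 bases before the start) there are 2 overlapping copies.
TNFSF10: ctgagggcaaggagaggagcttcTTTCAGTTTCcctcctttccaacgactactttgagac
B2M: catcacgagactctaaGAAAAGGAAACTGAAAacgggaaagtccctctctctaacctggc
This element was found in 2.95% of all promoters, in 12 of 17 of the interferon list (70.6%), in 7 of 12 of the MHC class I list (58.3%), in 7.91% of those of genes that rose by at least 1 log2 unit and in 1.54% of those that fell as much. Both lists were drawn up from what is known of these genes, so their high shares are no result of these data.

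While TRAIL rose, its receptors did not. TNFRSF10B, receptor 2 for TRAIL, read 8.31, 8.12 and 8.12 with cetuximab, against 8.69, 8.59 and 8.60 in control (−0.44), TNFRSF10A changed by −0.53 and the adaptor FADD by −0.47. CFLAR, which blocks caspase 8 at the receptor, rose by 0.45. In the BCL2 family HRK rose by 1.00 and BCL2L1 and BAK1 fell by 0.48 and 0.38, while BMF stood at 0.09 without passing. BCL2L11, or BIM, stood at −0.15 without passing, but 2 of its 7 probe sets rose, by up to 0.55.

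Of 15 chemokines and cytokines of the IL6 family 4 fell and 1, CXCL1, rose (median −0.09). The other 10 did not pass, while 33.3% of all genes passed in either direction. IL6, CXCL8 and CCL20 changed by −0.89, −0.81 and −0.68, and IL1A, an alarm cytokine of keratinocytes, read 9.32, 8.92 and 9.13 with cetuximab, against 10.63, 9.31 and 10.51 in control. IL1RN, the receptor antagonist, was 3.14-fold higher, but only 1 of its 5 probe sets was called and the lowest stood at −0.13. Of the checkpoint ligands CD274, or PD-L1, read 5.51, 5.44 and 5.53 with cetuximab, against 6.71, 6.34 and 6.49 in control, 2.03-fold lower. VTCN1, or B7-H4, read 6.85, 6.53 and 6.89 with cetuximab, against 4.48, 4.65 and 4.14 in control, 5.03-fold higher. The 2 ligands moved in opposite directions.

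Developmental pathways changed member by member. Of 11 genes in the Notch list 7 rose and none fell, among them the ligand DLL1 (1.49), JAG2 (0.81) and the receptor NOTCH1 (0.89), while the target HEY1 stood at −0.26 without passing. In the BMP and TGF-beta list ID3, an inhibitor of basic helix-loop-helix factors, rose by 1.33 and INHBA, the activin chain, fell by 1.13. WNT4, WNT9A and WNT5B rose by 1.17, 1.10 and 1.06, the first of which was lost with the probe set chosen on SQ20B arrays. CCN2, a matrix protein that YAP induces, read 7.10, 7.00 and 7.05 with cetuximab, against 9.79, 9.33 and 9.64 in control, 5.8-fold lower, but of 13 YAP targets 5 rose and 4 fell.

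Of 16 CEACAM, mucin and mucosal secretory genes 6 rose and 2 fell (median 0.06), the falls being the trefoil factors TFF3 (−0.42) and TFF1 (−0.32, not called without control replicate 3). The rises included LCN2, an iron-binding lipocalin, 3.47-fold, the mucin MUC16 3.42-fold and the surface antigen PSCA 3.69-fold higher, although CEACAM5 and CEACAM6 stood at −0.12 and 0.11 without passing. Of 14 NRF2 targets 6 rose and 2 fell. The aldo-keto reductases AKR1B10 and AKR1C3 rose by 3.08 and 2.56, while NQO1 and GCLM, 2 classical targets, stood at 0.16 and 0.14 and did not pass. Of 21 glycolysis and hypoxia genes 4 rose and 5 fell, against 18.4% and 14.9% of all genes, with ADM, a vasodilator, at +1.45 and VEGFA at −1.50. The p53 targets rose in 5 of 11 cases and fell in none, although MDM2 (0.33) did not pass.

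The response was then set against the mean change of the 5 other lines in 1 fit. The SQ20B change differed for 6492 genes (32.8%), above the others for 3517 (17.8%) and below for 2975 (15.0%). Of the 6579 SQ20B calls 4759 also differed from the others. No control arrays are shared between lines.

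Among the largest differences some genes hardly moved elsewhere, and others moved in opposite directions in different lines. MMP12 changed by 4.71 in SQ20B and by −0.02 on average in the other lines, where the values ran from −0.33 to 0.33. MAP7D2 changed by 3.27 in SQ20B and by −0.03 in the others. SERPINB4 changed by 3.81 in SQ20B and by 1.55 in SCC25 and 1.47 in SCC61, but by −2.74 in SCC047. CLIC3 changed by 3.51 in SQ20B and by 1.59 in SCC25, 0.74 in SCC61, −1.74 in SCC047, 0.72 in SCC090 and −1.41 in 93VU147T, a mean of −0.02.

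EGR1, DUSP6 and FOSL1 fell further in SQ20B than in the mean of the other lines. EGR1 changed by −5.06 in SQ20B and by −2.13 on average in the others (difference −2.93), DUSP6 by −4.56 and −1.86, and FOSL1 by −3.25 and −0.57. Of 16 ERK output genes 12 differed, all lower in SQ20B. The list median was −1.34 in SQ20B, against −0.58 in SCC25, −0.73 in SCC61, −0.11 in SCC047, −0.51 in SCC090 and −0.68 in 93VU147T. Single members departed from this, DUSP4 rising by 0.37 in SCC047 and EPHA4 by 0.91 in SCC61, and ETV4 changed by −0.62 in SQ20B and by −0.61 on average in the others.

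The mean of the other lines hides lines that moved in opposite directions. For DNA replication 27 of 28 genes were lower in SQ20B than in that mean, with a list median of −0.56 in SQ20B, against −0.49 in SCC25, 1.55 in SCC61, 0.40 in SCC047, −0.11 in SCC090 and −0.08 in 93VU147T. In SCC25 22 of the 28 fell, and in SCC61 27 rose. All 16 ribosome biogenesis genes differed lower, with a median of −0.68 in SQ20B, against −0.54 in SCC25, 0.13 in SCC61, 0.82 in SCC047, −0.07 in SCC090 and −0.01 in 93VU147T. In SCC25 15 of these 16 fell. The mitotic list differed lower in 12 of 26 and higher in none, with a median of 0.09 in SQ20B, against −0.39 in SCC25, 0.58 in SCC61, 0.47 in SCC047, 0.09 in SCC090 and 0.69 in 93VU147T.

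**Figure D4:**
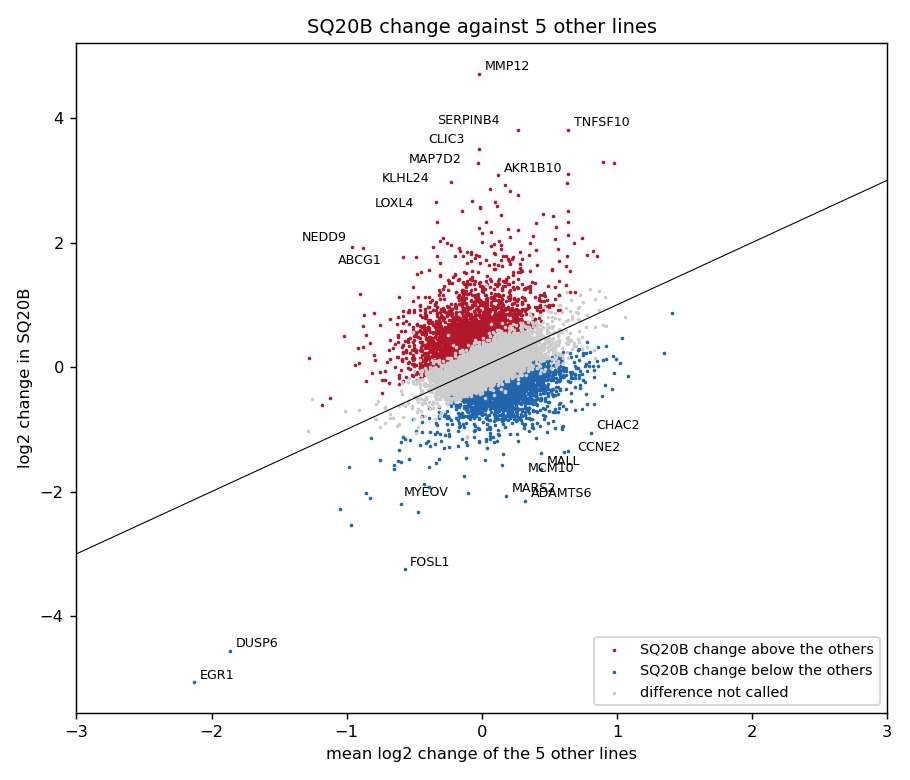
Log2 change in SQ20B (y axis) against the mean log2 change of the 5 other lines (x axis) for 19775 genes. Red and blue points differed above and below the others, grey points did not pass, and the line marks equal change. EGR1 and DUSP6 lie at the lower left, and MMP12 at the top, at −0.02 on the x axis.

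The MHC class I genes differed higher in SQ20B for 11 of 14 genes, with a median of 0.46 in SQ20B, against 0.29 in SCC25 and −0.13 to 0.06 in the other 4 lines. Of 22 interferon genes 10 were lower and 2 higher in SQ20B than in the mean of the others. Their median was 0.21 in SQ20B, against 0.61 in SCC25, 1.23 in SCC61, 1.11 in SCC047, 0.10 in SCC090 and 0.13 in 93VU147T, so that 3 lines lay above SQ20B and the other two below it. TFAP2A also differed, with a change of 0.69 in SQ20B and a mean of −0.34 in the other lines (difference 1.04, adjusted p = 4.55e-09 from limma).

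Single lines differed widely in what they shared with SQ20B. SCC25 called 31.7% of the SQ20B genes in the same direction and 1.16% in the opposite one, and 66.2% of the SCC25 calls were called alike in SQ20B. SCC61 shared 29.3% and opposed 31.6%, and 93VU147T shared 22.6% and opposed 24.7%. SCC047 opposed SQ20B most often, with 39.9% of the SQ20B calls reversed and 12.9% shared. SCC090, in which only 277 genes were called, shared 1.34%. Of SCC61, 93VU147T, SCC047 and SCC090 calls, 22.1%, 21.8%, 11.8% and 31.8% were called alike in SQ20B.

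**Figure D5:**
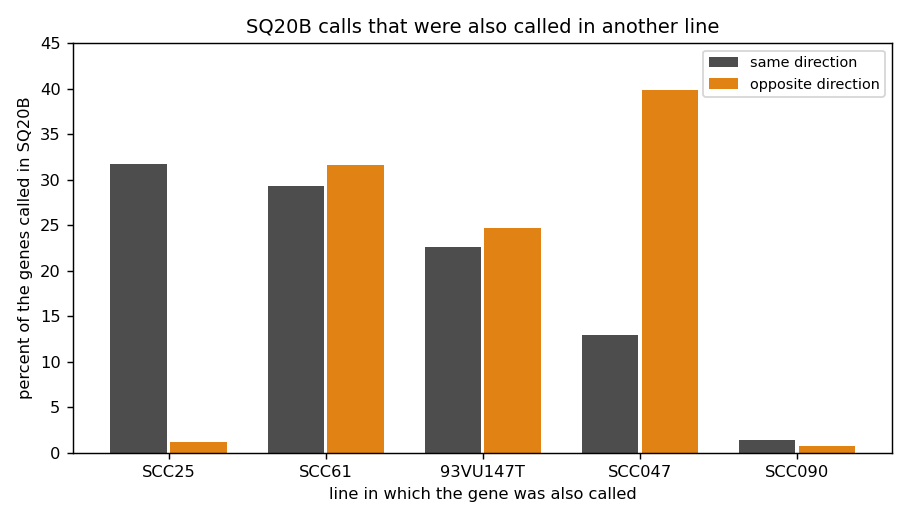
Percent of the 6579 genes called in SQ20B (y axis) that were also called in each other line (x axis), in the same direction (dark bars) or the opposite one (orange bars). Same-direction calls prevail in SCC25 (31.7% and 1.16%) and opposite calls in SCC047 (12.9% and 39.9%).

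Across all 19775 genes the change in SQ20B correlated with that in SCC25 at r = 0.59, with SCC61 and 93VU147T at 0.04 each, with SCC090 at 0.13 and with SCC047 at −0.26. The points are genes read by the same probe sets and are not independent replicates. Of the 364 large SQ20B rises 227 also rose in SCC25 and 1 fell, whereas in SCC047 44 rose and 186 fell. Of the 90 large falls 58 fell and 0 rose in SCC25, 42 fell and 27 rose in SCC61, 40 fell and 11 rose in 93VU147T, 20 fell and 36 rose in SCC047, and 11 fell and 1 rose in SCC090.

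Only 5 SQ20B calls were called in the same direction in each of the 5 other lines, and all 5 were falls. DUSP6, the ERK phosphatase, changed by −0.72 to −3.13 in those lines, and HBEGF by −0.54 to −2.34. IER3, an early response gene, changed by −1.64 in SQ20B, ETV4, an ETS factor, by −0.62 and FOXD1, a forkhead factor, by −0.51. The count of 5 could not exceed the 88 SQ20B calls that SCC090, with 277 genes called, shared. Another 95 SQ20B calls were called alike in exactly 4 other lines. At the other end, 1211 rises and 882 falls of SQ20B were called alike in no other line while also differing from the mean of the 5 lines in the same direction.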

How the data were processed

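Total RNA of 42 samples was read on 1 Affymetrix 3′ expression array type (54675 probe sets). The authors deposited log2 values summarised with fRMA. The methods also name a correction for batch, and whether it was applied to the deposited values is not given in the sources used here. Probe sets with 1 gene symbol in the platform annotation (41091) were reduced to the probe set of highest mean over the 42 arrays, giving 19775 genes. Probe sets with several symbols (1801) or not listed (11721) were left out. A linear model (limma 3.58.1, R 4.3.3) was fitted to 36 arrays with 12 group means, 24 residual degrees of freedom (prior 6.86), with a call at a Benjamini-Hochberg adjusted p under 0.05 over all genes. The number of arrays limits the precision. On simulated data with 19775 genes, 79% of changes of 0.5 and 100% of changes of 1 log2 unit were recovered, with 13 false calls. Only 100 genes per size were changed there, under independent normal noise and with no batch or RNA quality shift. The simulation therefore does not measure how many of the real calls are false.

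Genes were named as the 20 largest rises and falls called also without control replicate 3 with arms that did not overlap, the 10 largest differences from the other lines in each direction, up to 6 members per list (49 lists), the study's AP-2alpha targets and cell type markers. Further members given to complete a group, and the promoters, were chosen after their values were seen. Members and lists were chosen with earlier results of these data known. Promoter sequences are from RefSeq (GRCh38.p14), first listed start per gene, and matched 77.8% of genes. Alternatives were other probe set choices, a filter on dim genes, other scalings, other sets of arrays, a replicate block, other moderation, a minimum change and leaving out each array.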

Additional observations from a re-analysis of the deposited data

Results flagged for a closer look

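The groups hold 3 arrays each, too few to test for single outlying arrays. The SQ20B change differed from the mean change of the 5 other lines for 3517 genes in the upward and 2975 in the downward direction (limma, interaction term). The 10 largest positive differences on the log2 scale were MMP12 (4.72), SERPINB4 (3.54), CLIC3 (3.53), MAP7D2 (3.30), KLHL24 (3.19), TNFSF10 (3.17), LOXL4, a lysyl oxidase (2.99), AKR1B10 (2.96), NEDD9, a scaffold of adhesion signalling (2.89) and ABCG1 (2.80). Only 1 of 2 LOXL4 probe sets was called in SQ20B, and the other stood at −0.01. For NEDD9 1 of the 5 probe sets was called in the opposite direction, and its SQ20B change was only 0.33 and not called with the probe set of highest mean over the SQ20B arrays (adjusted p = 0.312 from limma) or of highest ratio of spread (0.314). The 10 largest negative differences were EGR1 (−2.93), DUSP6 (−2.69), FOSL1 (−2.68), the protease ADAMTS6 (−2.47), MARS2, the mitochondrial methionyl-tRNA synthetase (−2.25), the membrane protein MALL (−2.07), CCNE2 (−2.0), MCM10 (−1.98), MYEOV (−1.93) and CHAC2, a glutathione-degrading enzyme (−1.87). ADAMTS6 fell by 2.15 in SQ20B, while the mean of the other lines was 0.32. For CHAC2 the SQ20B arrays read 8.37, 8.73 and 8.14 with cetuximab, against 9.61, 9.65 and 9.17 in control.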

How the results depend on the processing

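Leaving out any 1 of the 6 SQ20B arrays gave 5277 to 6132 called genes, 3021 to 3434 higher and 2256 to 2731 lower. The difference from the 5 other lines then gave 5650 to 6164 genes, 3037 to 3393 above and 2570 to 2792 below. The ACTB shift ran from 0.23 to 0.35 and the GAPDH shift from 0.06 to 0.10. Against a minimum change of 0.5 log2 units 672 genes were called (515 higher and 157 lower), and 938 differed from the other lines (629 above and 309 below), since this setting asks for more than a difference from 0. The other alternatives gave 6142 to 6859 calls, within 1.5 times of 6579. Rises and falls numbered 3265 and 3249 after quantile normalization and 3776 and 2684 with centred medians. The control arrays share replicate numbers with the cetuximab arrays, but the deviations of same-numbered arrays correlated at only 0.082, 0.076 and 0.134, so the numbers were not taken as pairs. With a replicate block 6688 genes were called (3720 higher and 2968 lower) and 6619 differed from the other lines (3592 above and 3027 below). Each array did correlate best with its own number, a hint from the data alone. The difference from the other lines could not be fitted with the 6 SQ20B arrays alone.

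Another choice of probe set reversed some genes. With the highest mean over the SQ20B arrays, COL1A1 changed by −0.20, NOTCH3 by −0.15, TFAP2B by −0.22, TFEB by −0.05 and TP53INP1 by −0.23. With the highest ratio of spread across to within groups, ACACA changed by −0.02, AMOTL1 by −0.19, FGFR1 by −0.23, FGFR2 by −0.05, MCL1 by −0.33, MET by −0.34 and TFAP2B by −0.22. With the mean of all probe sets AMOTL1 changed by −0.11, FGFR1 by −0.12 and MCL1 by −0.16. No other named gene was reversed. Of 342 named genes 158 kept their side of the threshold under every alternative, and 148 lost their call against the minimum change of 0.5. Without control replicate 3, 20 named genes lost their call, KRT5 (adjusted p = 0.0615 from limma), TOP2A (0.0702), BIRC5 (0.114), CDK6 (0.0816), MMP9 (0.122), MMP11 (0.139) and PKP1 (0.0509) among them. An array reads a low transcript against non-specific signal, so small changes at low levels were not resolved here.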
